A study of Cricetiscus sungorus with 12 samples.

Results

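The SR splicing factors examined here were 10 genes of the Srsf family, chosen by a list of mouse GeneIDs. Of these, 9 had a record among the 17191 GeneIDs of the hypothalamic tables, namely Srsf1 (GeneID 110809), Srsf3 (20383), Srsf4 (57317), Srsf5 (20384), Srsf6 (67996), Srsf7 (225027), Srsf9 (108014), Srsf10 (14105) and Srsf11 (69207). Srsf2, the tenth, was not analysed here. The measurements were RSEM estimates from mRNA-Seq of the hypothalamus of 12 adult Djungarian hamsters, 1 library per hamster, so that p-values refer to the spread between hamsters.

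LP-NT were 4 normothermic hamsters (2 males, 2 females) kept in long photoperiod with 16 h of light and 8 h of dark. SP-NT were 4 normothermic hamsters (2 males, 2 females as labelled) acclimated to short photoperiod with 8 h of light and 16 h of dark and taken on a day without torpor. SP-HT were 4 hypothermic hamsters (3 males, 1 female) of the same short photoperiod, taken in spontaneous daily torpor, the regulated fall of metabolism and body temperature that this species enters for some hours on winter days. All were outbred hamsters with free access to food, sacrificed at about ZT 4, 4 h after lights on. According to the methods of the study, hamsters in short photoperiod carried a temperature transmitter, which the LP-NT hamsters did not, and the LP-NT hamsters were on average heavier. The SP-HT hamsters were on average older than those of both normothermic groups. Photoperiod cannot be told apart from surgery and body mass. Ages overlapped between SP-HT and the normothermic groups, and the part of age was not tested. Torpor cannot be told apart from low temperature, since SP-HT hamsters were cold when sampled. The sexes were also not balanced between SP-HT and SP-NT, which the study raised for genes on sex chromosomes. The part of sex was not tested beyond a covariate of the labelled sex.

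SR proteins bind exonic enhancers in pre-mRNA through RNA recognition motifs and recruit the spliceosome through a tail rich in arginine and serine. Kinases of the CLK and SRPK families phosphorylate that tail, and the activity of CLK kinases is sensitive to body temperature. Most SR genes also splice their own transcripts into alternative forms, among them forms with a premature stop codon or a retained intron, which lowers the amount of productive mRNA. mRNA-Seq measures neither the phosphorylation nor the amount of the proteins.

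A record can hold several transcripts of the hamster assembly, because all transcripts with the same best mouse hit were joined. The 9 records held between 4 transcripts (Srsf6) and 17 transcripts (Srsf7). Srsf5 held 12 transcripts from 3 genes of the assembly, Srsf3 held 10 from 6, Srsf4 held 11 from 5, and the records of Srsf1 (11 transcripts) and Srsf6 each came from 1 gene of the assembly. Srsf9 held 9 transcripts, and Srsf10 and Srsf11 held 8 each, from 3 genes of the assembly in all 3 records. For every record and sample there was an expected count, a length and an effective length. The length is the mean in bases over the record's transcripts, weighted by their estimated abundance in that sample. The effective length is shorter, because it allows for the fragment length of the library. For Srsf5 in LP-NT, the mean length was 2134 bases and the mean effective length 1870 bases. A change in the effective length can mean that reads were assigned to shorter or longer transcripts of the record. The effective length also shifts with the fragment length, so each sample was centred at its median before testing. Lengths printed in bases, their group means and the overlaps between groups are not centred, so fragment length can enter them. The tables used here hold no value per transcript, so which transcripts gained or lost reads is not known.

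The expected counts of a sample summed to between 20204979 and 24186918. The totals were between 22860110 and 24186918 in SP-NT and between 20204979 and 23018123 in SP-HT, so that depth differed with torpor, and the part of depth in the results was not tested beyond counts thinned to the lowest total, which changed no call of a member. The members were far from the limit of detection, with between 777 and 8074 counts per sample. Of 13 markers of hypothalamic neurons, 6 could be matched to a record, and all 6 were expressed in every sample, from 22.95 TPM for the lowest value of Npy to 907.3 TPM for the highest value of Avp. The summed TPM of these 6 markers ranged from 980.7 to 1354 for LP-NT, from 928.4 to 1449 for SP-NT and from 654.1 to 1057 for SP-HT. Avp averaged 656.2, 656.9 and 418.7 TPM in LP-NT, SP-NT and SP-HT, and Pomc 97.7, 48.7 and 35.8 TPM. In the same order, Cartpt averaged 145.5, 138.4 and 110.9 TPM and Sst 207.3, 227.8 and 213.7 TPM. Trh averaged 82.3, 90.1 and 81.3 TPM. Npy was higher in SP-HT than in SP-NT, with 41.9, 27.9 and 39.2 TPM. The part of these marker levels in the results below was not tested. SP-NT replicate 19 was labelled male but had 0 counts in a pair of GeneIDs whose counts ranged from 342 to 1699 in the other 6 males and from 0 to 5 in the 5 females. The main edgeR count fits and limma length fits that rest on SP-NT were therefore repeated without this hamster. The fits with DESeq2, voom, TPM or length offsets were not. All directions below follow the group labels of the samples. They run opposite to the torpor signs printed for the indicator genes of the study, in all 59 genes compared. The study also reported the cold-shock gene Rbm3 as upregulated in torpor, and Rbm3 was not analysed here. Whether the labels or the printed signs are exchanged was not settled, and each torpor direction below rests on the labels. The replicate numbers of the samples labelled SP-HT are those of the hamsters that the study recorded as hypothermic. The counts of the pair of sex-linked GeneIDs matched the labelled sex in 4 of 4 SP-HT samples (3 of them male-like) and 4 of 4 LP-NT samples. They matched in 3 of 4 SP-NT samples, and only 1 of the 4 SP-NT samples was male-like.

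Relative to transcript length, Srsf5 was the most abundant member in each of the 12 samples. Its mean was 473.8 TPM (range 340.9 to 588.9), which was higher than the mean of 98.7% of all GeneIDs. Srsf3 with 134.6 TPM (122.9 to 176.7) and Srsf7 with 127.8 TPM (115.0 to 140.9) followed, with overlapping ranges. Srsf1 with 97.9 TPM (88.22 to 104.0) and Srsf6 with 89.4 TPM (79.81 to 99.61) overlapped in range as well, although Srsf1 was above Srsf6 within all 12 samples. The lowest 4 members were Srsf10 with 56.7 TPM, Srsf9 with 56.6 TPM, Srsf4 with 50.0 TPM and Srsf11 with 48.9 TPM. Each of these overlapped its neighbour in the order, and Srsf10 exceeded Srsf9 in only 7 of 12 samples. Even Srsf11 was above 73.9% of all GeneIDs.

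**Figure D1:**
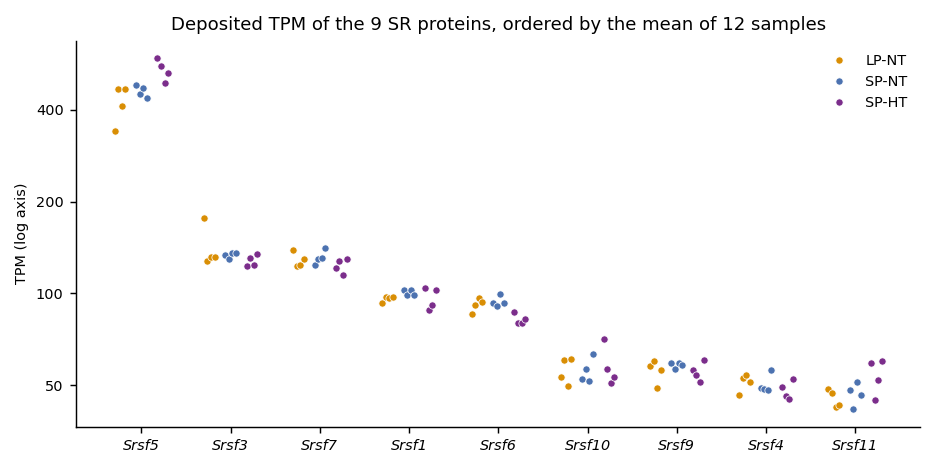
Deposited TPM of each member (log axis) in the 12 samples, 4 points per group, ordered by the mean of all samples. Srsf5 lies above every other member in all samples, and its SP-HT points, from 489.1 to 588.9 TPM, lie above its points in the other groups.

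The sum of the TPM of the 9 members was 1089 ± 47.6 (mean ± SD) over the 4 LP-NT hamsters, 1132 ± 21.5 over the 4 SP-NT and 1187 ± 66.4 over the 4 SP-HT hamsters. Srsf5 made up 38.6% ± 4.06 of the sum for LP-NT, 40.6% ± 1.39 for SP-NT and 45.5% ± 1.62 for SP-HT. The lowest share in SP-HT was 43.8% and the highest in a normothermic hamster was 42.1%. These shares combine counts and effective lengths, which are taken apart below.

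The torpor comparison asked whether SR genes were expressed at another level in hypothermic than in normothermic hamsters of short photoperiod. By the number of reads assigned, no member was called, which does not show that the counts were equal. The share of all GeneIDs called was small, so no call among 9 members says little about the family. The confidence intervals in edgeR reached from -18.7% to 0.73% for Srsf9 and from -0.11% to 29.7% for Srsf11. None of the 9 members passed padj < 0.05 in edgeR's quasi-likelihood test (0 of 9), where 2.40% of all 16195 GeneIDs tested did, and 0 of 9 had an unadjusted p under 0.05, as 18.4% of all GeneIDs had. DESeq2 with default settings, which called 6.28% of all GeneIDs, and limma with voom also called 0 of 9. With any 1 hamster left out, SP-NT replicate 19 included, edgeR called 0 of 9. The CPM of SP-HT and SP-NT overlapped in every member, whereas SP-HT was above SP-NT without overlap in 4.74% and below it in 7.39% of all GeneIDs. The median log2(FC) of the members was -0.044, with 2 members above and 7 below 0, beside a median of -0.0027 over all GeneIDs. Without its sign, the median was 0.084 over the members and 0.12 over all GeneIDs. In bulk tissue, fewer cells of a type and less RNA per cell cannot be told apart.

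Srsf1, Srsf3 and Srsf7 are SR proteins that shuttle between nucleus and cytoplasm and also serve the export of mRNA. The normalized count of Srsf1 was 223.6, 220.7, 219.1 and 221.1 CPM in LP-NT, 232.4, 223.7, 229.9 and 222.7 CPM in SP-NT and 242.3, 207.7, 218.4 and 237.3 CPM in SP-HT. The SP-HT hamsters lay both below and above all others, and the log2(FC) was -0.0058 (95% CI -0.13 to 0.11, padj = 0.97 in edgeR). That interval reaches from -8.33% to 8.22%.

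Srsf3 had 170.5, 118.1, 119.4 and 116.6 CPM in LP-NT, 121.1, 119.4, 122.5 and 120.7 CPM in SP-NT and 110.9, 121.5, 116.9 and 120.3 CPM in SP-HT. Apart from the first LP-NT hamster, the groups overlapped (torpor log2(FC) -0.044, padj = 0.63 in edgeR). Srsf7 ranged from 72.70 to 78.86 CPM in SP-HT and from 77.28 to 84.28 CPM in SP-NT, again with overlap (log2(FC) -0.087, padj = 0.39 in edgeR).

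Srsf9 resembles Srsf1 in the arrangement of its RNA-binding domains. It had 46.69, 43.17, 45.67 and 45.19 CPM in SP-NT and 41.63, 37.48, 38.86 and 45.73 CPM in SP-HT. One of the SP-HT hamsters, replicate 33, was within the range of SP-NT, and the log2(FC) was -0.14 (95% CI -0.30 to 0.011, padj = 0.30 in edgeR).

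Srsf4, Srsf5 and Srsf6 are closely related and carry a pair of RNA recognition motifs with a long tail of arginine and serine. Srsf5 had 254.2, 312.1, 273.7 and 303.9 CPM in LP-NT, 331.5, 301.9, 317.7 and 276.8 CPM in SP-NT and 333.8, 313.9, 275.6 and 303.2 CPM in SP-HT. SP-NT and SP-HT spanned nearly the same range, and the log2(FC) was -0.0029 (95% CI -0.15 to 0.15, padj = 0.99 in edgeR). Srsf4 ranged from 70.68 to 75.97 CPM in SP-HT and from 73.12 to 79.93 CPM in SP-NT (log2(FC) -0.056, padj = 0.60 in edgeR). Srsf6 ranged from 130.3 to 139.1 CPM in SP-HT and from 134.4 to 148.3 CPM in SP-NT (log2(FC) -0.084, padj = 0.35 in edgeR). Neither of the last 2 was separated from its control group.

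Srsf10 becomes a splicing repressor when it is dephosphorylated, as in heat shock, and Srsf11 takes part in the inclusion of neuronal microexons. Srsf11 had 88.01, 85.85, 78.04 and 78.87 CPM in LP-NT, 85.04, 77.30, 89.09 and 83.80 CPM in SP-NT and 105.9, 79.49, 94.27 and 102.1 CPM in SP-HT. In SP-HT, 3 hamsters were above all normothermic hamsters and replicate 10 was within their range. The log2(FC) of 0.19 was the largest in size among the members and did not pass the threshold (95% CI -0.0016 to 0.38, padj = 0.28 in edgeR). A log2(FC) of at least this size occurred in 32.4% of all GeneIDs tested. Srsf10 had 41.59, 39.11, 37.11 and 42.47 CPM in LP-NT, 45.42, 45.46, 42.30 and 39.58 CPM in SP-NT and 46.71, 48.52, 45.35 and 44.11 CPM in SP-HT. The values of SP-HT overlapped those of SP-NT (log2(FC) 0.095, padj = 0.45 in edgeR), and were above those of LP-NT.

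**Figure D2:**
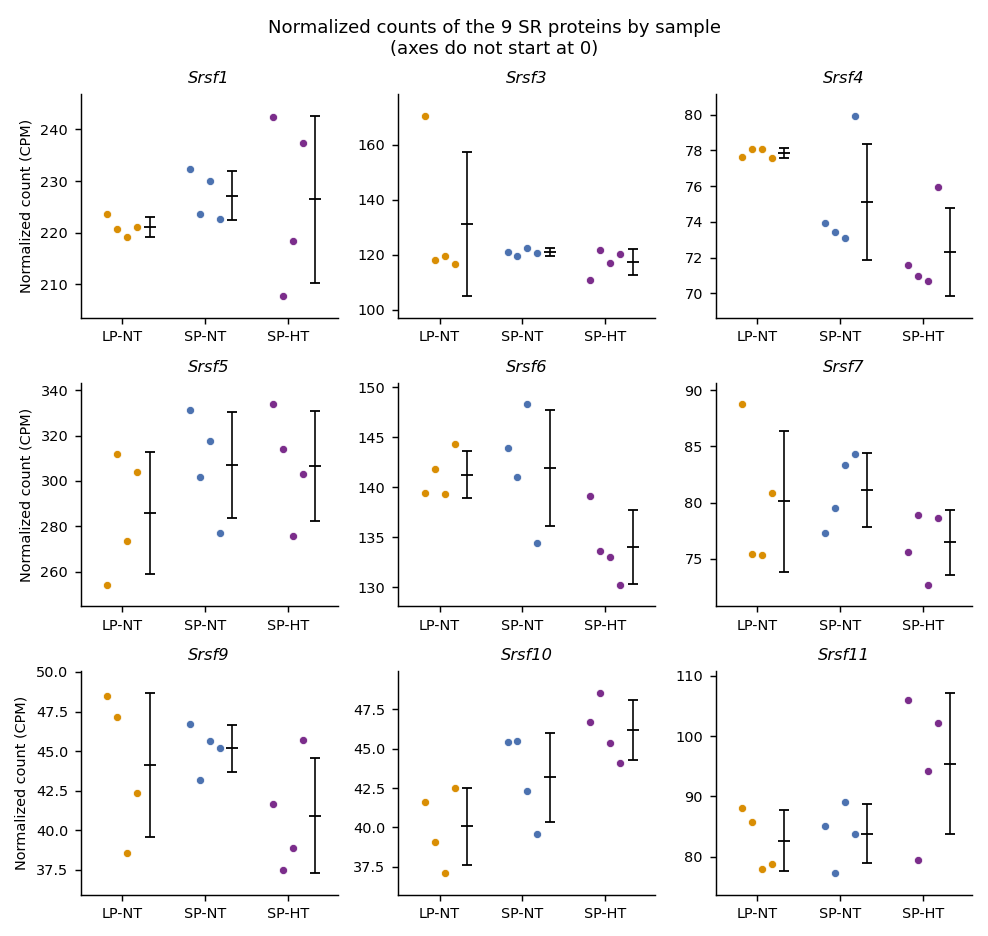
Normalized counts (CPM, TMM factors) of the 9 members, 1 panel per gene, with 1 point per hamster and the mean ± SD of each group of 4 as black bars. No member separates SP-HT from SP-NT, and LP-NT replicate 1 stands apart for Srsf3 at 170.5 CPM.

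The photoperiodic comparison (SP-NT against LP-NT) gave no call of a member by counts either. So few GeneIDs were called at all that this says little about the members. The 95% intervals in edgeR reached from -22.6% to 9.68% for Srsf3 and from -3.59% to 20.3% for Srsf10. With edgeR 0 of 9 members passed the threshold, beside 0.0370% of 16199 GeneIDs, and 0 of 9 had an unadjusted p under 0.05, beside 4.84% of all. DESeq2 with default settings, with 0.204% of all GeneIDs called, and limma with voom called 0 of 9 as well. The CPM of the groups overlapped in all 9 members, while 1.72% of all GeneIDs were higher without overlap in SP-NT and 1.72% lower. The median log2(FC) of the members was 0.018 and the log2(FC) were between -0.12 for Srsf3 and 0.11 for Srsf10 (padj between 0.91 and 0.99 over the members in edgeR). The value of Srsf3 rested on LP-NT replicate 1. Without that hamster the log2(FC) was 0.034 (padj = 0.996 in edgeR). For Srsf5, the log2(FC) was 0.10 (95% CI -0.075 to 0.28, padj = 0.91 in edgeR).

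SP-HT differed from LP-NT in torpor and photoperiod together. This comparison shares its SP-HT hamsters with the torpor comparison and its LP-NT hamsters with the photoperiodic one. With edgeR 0 of 9 members were called, beside 1.37% of 16157 GeneIDs, and DESeq2 with default settings, which called 4.37% of them, and limma with voom called 0 of 9. An unadjusted p under 0.05 was reached by 2 of 9 members in edgeR, beside 15.1% of all GeneIDs, and both were members whose counts were higher in SP-HT. For Srsf10 the log2(FC) was 0.21 (95% CI 0.058 to 0.36, padj = 0.18 in edgeR) and all 4 SP-HT hamsters were above all 4 LP-NT hamsters, as for 3.81% of GeneIDs. For Srsf11 the log2(FC) was also 0.21 (95% CI 0.014 to 0.41, padj = 0.30 in edgeR), with overlap. In the opposite direction, all SP-HT values were below all LP-NT values for Srsf4 (log2(FC) -0.10, padj = 0.44 in edgeR) and Srsf6 (log2(FC) -0.069, padj = 0.58 in edgeR), as for 6.83% of GeneIDs.

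**Figure D3:**
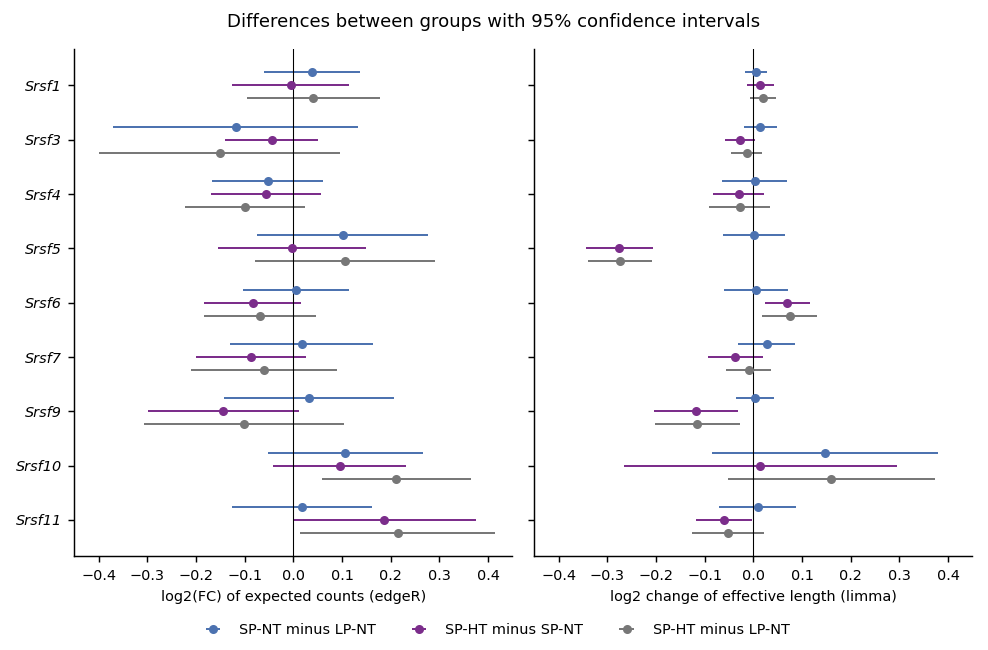
Left, log2(FC) of the expected counts in edgeR, and right, log2 change of the effective length in limma, for each member with its 95% confidence interval (bars) in the 3 comparisons. On the left all intervals cross 0 except those of Srsf10 and Srsf11 for SP-HT minus LP-NT. On the right Srsf5 lies at -0.28 and -0.27 in the comparisons that involve SP-HT and near 0 between SP-NT and LP-NT. The length intervals of Srsf6 and Srsf9 also exclude 0 in both comparisons that involve SP-HT, and that of Srsf11 for SP-HT minus SP-NT.

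The effective length, in contrast, set the SP-HT hamsters apart for Srsf5. Srsf5 measured 1950, 1844, 1873 and 1813 bases in LP-NT (mean 1870 ± 58.6, SD, n = 4), 1915, 1871, 1900 and 1779 bases in SP-NT (1866 ± 61.1, SD, n = 4) and 1534, 1504, 1488 and 1596 bases in SP-HT (1531 ± 47.9, SD, n = 4). All SP-HT values were below all 8 normothermic values, with a gap from 1596 to 1779 bases, whereas LP-NT and SP-NT covered the same range. The female SP-HT hamster, replicate 2, had 1534 bases and lay among the 3 males.

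The size of this difference was estimated with limma on the log2 effective length of all records with more than 1 transcript. In torpor, Srsf5 was shorter than in SP-NT by 0.28 on the log2 scale (log2 change -0.28, SE 0.029, 95% CI -0.34 to -0.21), which corresponds to -17.4% (95% CI -21.3% to -13.3%). It had rank 5 by p among 12288 records, yet padj was 0.0517 in limma, just outside the threshold, and only 4 records (0.0326%) passed it. By this test 0 of 9 members were called, while 4 of 9 had an unadjusted p under 0.05, beside 11.9% of all records. When the spread was estimated from all 12 hamsters in a single limma fit, padj of Srsf5 was 0.0056 at the same log2 change, and 0.815% of records were called. Without SP-NT replicate 19 the log2 change was -0.27 (padj = 0.10 in limma).

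Against LP-NT, the effective length of Srsf5 was lower by 17.3% in SP-HT (log2 change -0.27, SE 0.028, 95% CI -0.34 to -0.21), and here padj was 0.0291 in limma. Srsf5 was the only 1 of 9 members called, beside 0.139% of 12213 records (0.0819% in the same direction). Leaving out any of the 8 hamsters moved padj to between 0.054 and 0.12 in limma at log2 changes between -0.29 and -0.26, so that the call, but not the difference, rested on each of them. Between SP-NT and LP-NT the log2 change was 0.0020 (95% CI -0.062 to 0.066, padj = 0.99 in limma). In that comparison limma called 0 of 9 members and 0 of 12317 records, and 0 of 9 members had an unadjusted p under 0.05, beside 4.64% of all records. The lengths of SP-NT and LP-NT overlapped in all 9 members, while 1.40% of records were longer and 1.26% shorter in SP-NT without overlap. When SP-HT was compared with all 8 normothermic hamsters together, a comparison added after the values had been seen, the log2 change was -0.27 (SE 0.023, padj = 0.00062 in limma). Of all records, 2.64% had an effective length below that of all 8 normothermic hamsters in every SP-HT hamster.

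**Figure D4:**
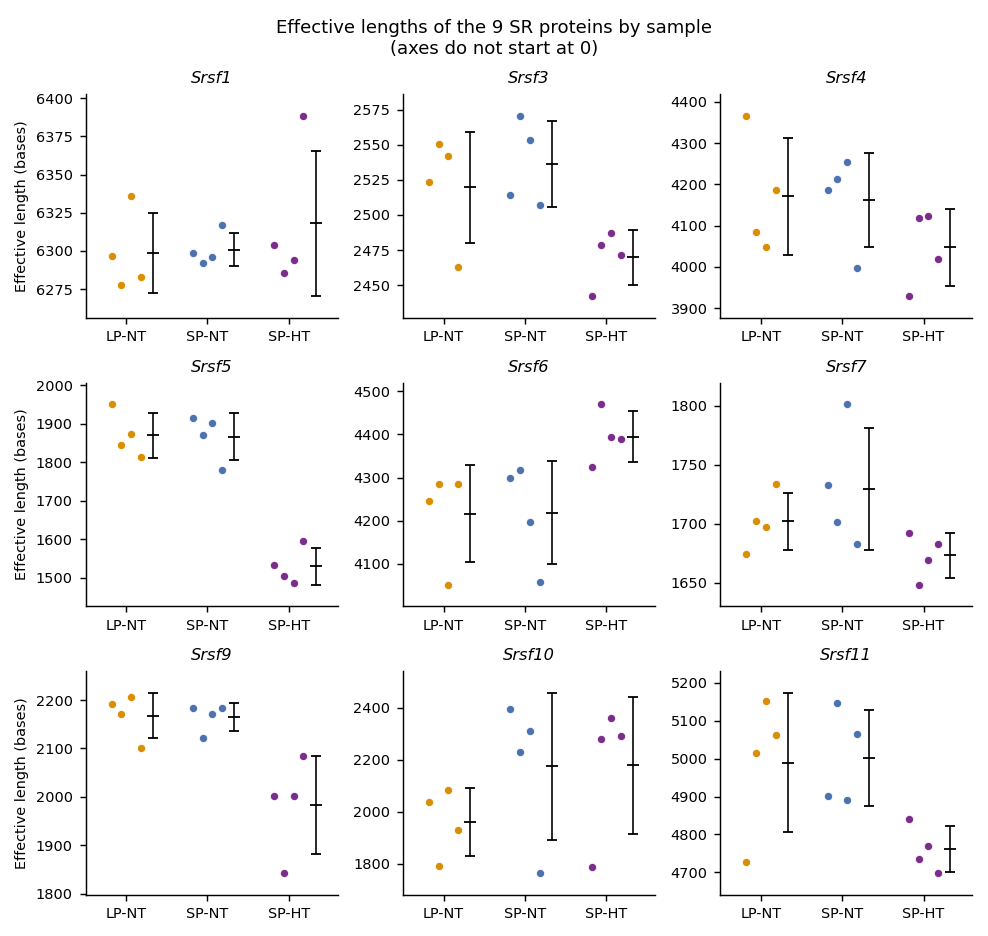
Effective length in bases of the 9 members, 1 panel per gene, with 1 point per hamster and the mean ± SD of each group of 4 as black bars. SP-HT lies below both normothermic groups for Srsf5 (1488 to 1596 bases) and Srsf9 and above them for Srsf6.

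A shorter effective length at an equal count raises the TPM, since RSEM divides the count by this length. Srsf5 had 340.9, 468.6, 409.5 and 465.6 TPM in LP-NT, 480.9, 449.1, 471.6 and 437.9 TPM in SP-NT and 588.9, 557.2, 489.1 and 526.6 TPM in SP-HT. The means were 421.1 ± 60.0 (SD, n = 4), 459.9 ± 19.8 (SD, n = 4) and 540.4 ± 42.6 (SD, n = 4), and SP-HT did not overlap with either other group. The TPM was higher without overlap in 2.39% of all GeneIDs for SP-HT against SP-NT and in 2.96% for SP-HT against LP-NT. On the scale log2(TPM + 1), the difference between SP-HT and SP-NT was 0.23 and did not pass the threshold (SE 0.061, padj = 0.13 in limma). The counts of Srsf5 with the effective lengths as an offset gave a log2(FC) of 0.27 (SE 0.061, padj = 0.067 in edgeR). DESeq2 with the effective lengths as normalization factors gave 0.28 (SE 0.067, padj = 0.0022) and called 1 of 9 members, Srsf5, beside 4.69% of all GeneIDs. Against LP-NT the same DESeq2 setting gave Srsf5 a log2(FC) of 0.38 (SE 0.10, padj = 0.0096, 3.86% of GeneIDs called). In photoperiod it called 0.198% of GeneIDs and no member. Whether Srsf5 was called as higher in SP-HT therefore depended on whether its lower effective length entered the test and on the tool. In torpor and in photoperiod, DESeq2 with effective lengths called as many GeneIDs as the study, which also used DESeq2, reported as differentially expressed. The study did not name Srsf5 in its text, and its full list of genes was not compared here.

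**Figure D5:**
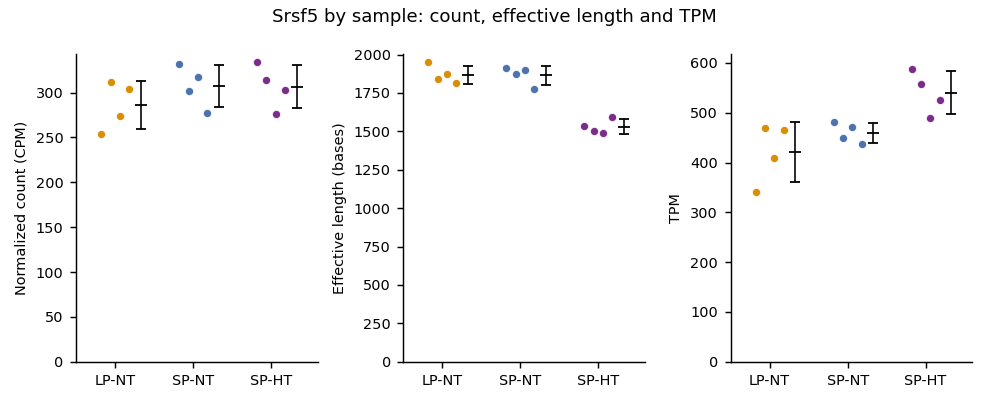
Srsf5 in the 12 samples as normalized count (CPM), effective length (bases) and TPM, all axes from 0, with 1 point per hamster and the mean ± SD of each group of 4 as black bars. The counts of the groups overlap, the effective length of SP-HT (1531 ± 47.9 bases) is below the others, and the TPM of SP-HT (540.4 ± 42.6) is above them.

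Among the other members, Srsf9 and Srsf6 also had effective lengths in SP-HT outside the range of all 8 normothermic hamsters. Srsf9 measured 2193, 2172, 2206 and 2101 bases in LP-NT, 2184, 2122, 2170 and 2184 bases in SP-NT and 2001, 1842, 2002 and 2085 bases in SP-HT. The log2 change was -0.12 in torpor (SE 0.037, padj = 0.26 in limma) and -0.12 against LP-NT (SE 0.037, padj = 0.28 in limma), and the lowest value, 1842 bases, came from SP-HT replicate 10. Without that hamster the torpor change was -0.083 (SE 0.020, padj = 0.20 in limma). Against all 8 normothermic hamsters together it was -0.12 (SE 0.027, padj = 0.048 in limma), in the comparison added after seeing the values. The TPM of Srsf9 was 58.39 ± 1.31 (SD, n = 4) for SP-NT and 55.66 ± 4.01 (SD, n = 4) for SP-HT, with overlap.

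Srsf6 was the reverse case. It measured 4245, 4285, 4052 and 4285 bases in LP-NT, 4299, 4318, 4198 and 4057 bases in SP-NT and 4324, 4470, 4394 and 4390 bases in SP-HT. All SP-HT values were above the others, as for 1.27% of all records, but the nearest values, 4318 and 4324 bases, were almost equal. The log2 change was 0.070 in torpor (SE 0.020, padj = 0.22 in limma) and 0.075 against LP-NT (SE 0.024, padj = 0.27 in limma), so neither passed the threshold. A longer effective length lowers the TPM, and Srsf6 had 92.95, 90.88, 99.61 and 93.26 TPM in SP-NT and 87.06, 79.81, 79.94 and 82.28 TPM in SP-HT. These values did not overlap, as for 8.10% of all GeneIDs that were lower in SP-HT, but the difference of -0.19 on the scale log2(TPM + 1) did not pass the threshold (SE 0.049, padj = 0.11 in limma), nor did that of DESeq2 with effective lengths (log2(FC) -0.15, padj = 0.061).

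Between SP-HT and SP-NT, the remaining records differed less. Srsf11 ranged from 4698 to 4841 bases in SP-HT and from 4891 to 5147 in SP-NT, but LP-NT replicate 1 with 4728 bases was within the range of SP-HT (torpor log2 change -0.060, SE 0.025, padj = 0.40 in limma). Srsf3 ranged from 2442 to 2487 bases in SP-HT and from 2507 to 2571 in SP-NT (log2 change -0.028, padj = 0.47 in limma), with LP-NT replicate 5 at 2463 bases. In all, the uncentred effective lengths of SP-HT were below those of SP-NT without overlap in 4 of 9 members, beside 6.01% of all records. They were above those of SP-NT in 1 of 9, beside 2.87%. The other 4 overlapped. Against LP-NT, 2 of 9 (Srsf5 and Srsf9) were shorter without overlap, beside 5.66% of records, and 1 of 9 (Srsf6) was longer, beside 2.53%. Srsf1 was the steadiest record, with group means between 6298 and 6318 bases, while the group means were between 4047 and 4171 bases for Srsf4 and between 1673 and 1730 bases for Srsf7 (padj = 0.68 and 0.63 for torpor in limma).

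Relative to its mean length, Srsf10 varied most within each group, with an SD of 6.62% of the mean for LP-NT, 13.0% for SP-NT and 12.1% for SP-HT. It measured 2039, 1792, 2084 and 1932 bases in LP-NT, 2396, 2230, 2310 and 1765 bases in SP-NT and 1788, 2282, 2359 and 2290 bases in SP-HT. In SP-NT and SP-HT alike, 3 hamsters were above and 1 hamster was below all LP-NT hamsters. The torpor log2 change was 0.015 (95% CI -0.27 to 0.29, padj = 0.98 in limma), an interval from -16.8% to 22.7%. In photoperiod it was 0.15 (95% CI -0.086 to 0.38, padj = 0.95 in limma). Against LP-NT, SP-HT differed by 0.16 (95% CI -0.053 to 0.37, padj = 0.52 in limma). The TPM of Srsf10 varied accordingly, from 50.75 to 70.71 in SP-HT, with the highest value in the hamster with 1788 bases, replicate 2.

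LP-NT replicate 1 stood apart in several members. Besides the highest count of Srsf3, it had the highest counts of Srsf7 (88.74 CPM) and Srsf9 (48.46 CPM) and the lowest count of Srsf5 (254.2 CPM) among the 12 hamsters, with the longest Srsf4 (4366 bases) and the longest Srsf5 (1950 bases). Without it, the Srsf5 length difference between SP-HT and LP-NT was -0.26 (SE 0.027, padj = 0.068 in limma), and the log2(FC) of the Srsf3 count between SP-HT and LP-NT moved from -0.15 to -0.0057 (padj = 0.97 in edgeR).

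The profile of the family over the 12 samples, taken as the mean of the standardised log2 CPM of the 9 members, was between -0.66 and 0.55, and both ends were found in LP-NT (replicates 3 and 1). SP-HT covered -0.66 to 0.32 and SP-NT -0.081 to 0.44. Of 11844 other GeneIDs with a mean of at least 100 counts, the 5 with the profile most like it were GeneIDs 106205, 75871, 234683, 13804 and 69908. Root mean square differences were between 0.59 and 0.63 standard deviations over the 12 samples. As a mean of 9 members, the profile spread less than a single standardised GeneID, so even a GeneID of the same shape would differ from it. The torpor log2(FC) of the 5 GeneIDs were between -0.28 and 0.020 (padj between 0.35 and 0.97 in edgeR). The tables pair no names with the GeneIDs, so the SR kinases, the hnRNP proteins, the cold-inducible Rbm3 and Cirbp and the marker genes of glia, vessels and neighbouring tissues were not analysed here, and the part of cell composition in the length differences was not tested.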

How the data were processed

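Paired-end mRNA-Seq libraries of 12 hypothalami (4 LP-NT, 4 SP-NT, 4 SP-HT as labelled) were processed by the authors with FastQC 0.11.9 and Trim Galore 0.6.6. All reads were pooled into a Trinity assembly, transcripts were grouped by the GeneID of their best blastx hit to a mouse protein, and each library was aligned to these transcripts with Bowtie 1.3.0 and quantified with RSEM 1.3.1. The authors deposited, per GeneID and sample, the expected count (an estimated count, not normalized), TPM, FPKM (not used), and length and effective length in bases. The counting joins paralogs and isoforms with the same best hit. Strand use in the counting is not given in the sources used here.

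Expected counts were rounded, GeneIDs that summed to at least 10 in the compared groups were tested, and groups were compared with edgeR 4.0.16 (quasi-likelihood test, TMM, no covariate) in R 4.3.3, with Benjamini-Hochberg adjustment over all GeneIDs and a threshold of 0.05. The standard error is the log2(FC) divided by the root of F. Effective lengths were compared with limma 3.58.1 on log2 values centred at each sample's median, restricted to GeneIDs of several transcripts whose counts averaged at least 50. CPM use TMM factors over 12 samples. DESeq2 1.42.0, voom, other size factors and filters, sex as labelled, length offsets and thinned counts were alternatives. So were TPM with a pseudocount of 1 or 0.1 and a mean of at least 0.1, and leaving out each hamster. The fits were tested on simulated data.

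The members and lists were chosen with earlier results of these data known. All members and the 5 GeneIDs with the most similar profile were named. The rule on lists of other splicing genes could not be applied because the tables hold no names. Names of 6 peptides and the check of direction used 61 indicator genes of the study, of which 59 matched 1 GeneID by value without using the torpor sign. In SP-HT minus SP-NT, all 59 had the sign opposite to the printed one. The matches used the sign for SP-NT minus LP-NT, so SP-NT as labelled is the group of the photoperiodic values. The sex-linked counts matched the labelled sex in 4 of 4 SP-HT samples, and DESeq2 with effective lengths called 0.198% of GeneIDs in SP-NT and 3.86% in SP-HT, each against LP-NT.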

Additional observations from a re-analysis of the deposited data

Results flagged for a closer look

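For the CPM, TPM and effective length of the 9 members, 81 groups of 4 hamsters were examined for a hamster far from the other 3, and 6 groups held one. Chance gives about 1 in 20 groups, and count, TPM and length of a gene are not independent. Srsf3 in LP-NT replicate 1 was at 170.5 CPM, with the other LP-NT hamsters between 116.6 and 119.4 CPM, and at 176.7 TPM against 128.2 to 131.6 TPM. In the same hamster Srsf1 was at 92.83 TPM, below the other 3 at 96.92 to 97.75 TPM. Srsf4 in SP-NT replicate 38 was at 79.93 CPM against 73.12 to 73.91 CPM, and at 56.27 TPM against 48.48 to 49.03 TPM. The effective length of Srsf10 in SP-HT replicate 2 was 1788 bases, against 2282 to 2359 bases in the other SP-HT hamsters.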

How the results depend on the processing

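No paired analysis was possible because the groups share only the replicate number 2 and each number is a different hamster. No member was called by counts in any comparison with any other setting, with 1 exception. DESeq2 with effective lengths called 1 member, Srsf5, in torpor and 1, Srsf5, against LP-NT. For lengths in torpor, 0 members were called in the analysis above. Srsf5 was called with the RSEM length column, at a log2 change of -0.24 beside -0.28 for the effective length (padj = 0.047 in limma). It was also called without centring (0.046) and with a higher count minimum of 200 (just under the threshold). Sample weights (0.046) and all samples in one fit (0.0056) gave the call as well. With the labelled sex as a covariate 0 members were called (padj of Srsf5 0.093 in limma). That covariate took SP-NT replicate 19 as male, although its sex-linked counts were 0. SP-HT against all normothermic samples, chosen after seeing the data, called 2 lengths, Srsf5 and Srsf9, in place of 0 in torpor and of 1 against LP-NT. Leaving out 1 hamster gave 0 called lengths in torpor (padj of Srsf5 between 0.055 and 0.15 in limma) and 0 against LP-NT.

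Values near 0 changed sign, and the cause was not tested except where lengths entered the test by construction. The torpor log2(FC) of Srsf1 (-0.0058) became 0.0035 with DESeq2 default, 0.0035 with RLE size factors, 0.0074 with the sex covariate and 0.017 against all normothermic samples. That of Srsf5 (-0.0029) became 0.0064 with DESeq2 default, 0.0064 with RLE size factors, 0.018 with the sex covariate and 0.050 against all normothermic samples, and with lengths it became 0.27 (edgeR offset), 0.28 (DESeq2), 0.23 (TPM, pseudocount 1 and no filter) and 0.23 (pseudocount 0.1). In photoperiod, Srsf7 became -0.0052 with the edgeR offset and -0.0046 with DESeq2 with lengths, and Srsf10 became -0.035 and -0.034 in these and -0.0024 (pseudocount 1), -0.0025 (pseudocount 0.1) and -0.0024 (no filter) in TPM. Against LP-NT, Srsf9 became 0.011 with the edgeR offset and 0.017 with DESeq2 with lengths. Among length changes, Srsf10 in torpor became -0.0021 with the sex covariate and Srsf7 against LP-NT 0.0012, photoperiod changes became -0.0025 for Srsf4, -0.0029 for Srsf5 and -0.0017 for Srsf9 without centring, and -0.0029 for Srsf11 with sample weights.

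With 1 hamster left out, log2(FC) in torpor were between -0.038 and 0.035 for Srsf1 and between -0.048 and 0.045 for Srsf5. In photoperiod they were between -0.17 and 0.034 for Srsf3, -0.014 and 0.031 for Srsf6, -0.012 and 0.070 for Srsf7, -0.025 and 0.080 for Srsf9, and -0.010 and 0.055 for Srsf11. Length changes were between -0.080 and 0.10 for Srsf10 in torpor and -0.020 and 0.0026 for Srsf7 against LP-NT, and in photoperiod between -0.014 and 0.021 for Srsf4, -0.0095 and 0.022 for Srsf5, -0.016 and 0.021 for Srsf6, -0.0086 and 0.013 for Srsf9, and -0.020 and 0.022 for Srsf11. All other values of single members kept their sign and, apart from the calls of Srsf5 and Srsf9 named above, their side of the threshold.

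Over all GeneIDs, the number called by counts depended on the setting, with 389 in torpor (112 to 1017 over the alternatives), 6 in photoperiod (5 to 33) and 221 against LP-NT (73 to 706), as did that by lengths, with 4 (0 to 100), 0 (0 to 0) and 17 (12 to 122). With 1 hamster left out the ranges were 104 to 318, 5 to 8 and 55 to 200 by counts and 0 to 7, 0 to 1 and 1 to 16 by lengths. SP-HT against all normothermic samples gave 863 and 281. With 4 hamsters per group, the 95% intervals of the torpor log2(FC) reached from -0.30 (Srsf9) to 0.38 (Srsf11).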
